A study of Mus musculus with 30 samples.

Results

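The 10 genes described here are NFE2L2, which encodes the transcription factor NRF2, and 9 genes of antioxidant defence: GCLC, GCLM, TXNRD1, SRXN1, CAT, SOD2, GPX3, NQO1 and HMOX1. They were chosen by name, with earlier results of these data known. Each was matched to 1 of the 21073 genes in the expression table by its symbol. EDL muscle, the extensor digitorum longus of the hind limb, was taken from 30 female WT SJL mice, 5 in each of 6 groups. On day 14 and again on day 40 the groups were Unimmunized mice (Ctrl), mice given ovalbumin in complete Freund's adjuvant (OVA), and mice given the myelin peptide PLP139-151 in the same adjuvant to induce experimental autoimmune encephalomyelitis (EAE), a model of multiple sclerosis. All mice carried the wild-type genotype, so no allele or transgene separated the groups. The Ctrl mice received no adjuvant, so the OVA mice are the control for the adjuvant. Each mouse was sampled once, and values of day 14 and day 40 come from different mice. The study places the peak of disease at day 14 and chronic remission at day 40. The age of the mice is not given in the sources used here, and clinical scores of single mice were not used.

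NRF2 is held low in unstressed cells by KEAP1, which hands it to a CUL3 ubiquitin ligase for degradation. When oxidants or electrophiles modify KEAP1, NRF2 accumulates, pairs with a small MAF protein and binds antioxidant response elements near its target genes. Classical targets make glutathione (GCLC and GCLM), reduce thioredoxin and peroxiredoxins (TXNRD1 and SRXN1), reduce quinones (NQO1) and break down haem (HMOX1). Contracting muscle is a steady source of superoxide and hydrogen peroxide, which superoxide dismutases, catalase and glutathione peroxidases remove. Much of the control of NRF2 acts on the protein, which RNA-Seq does not measure.

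The promoters of 8 of the 10 genes were read from RefSeq (GRCm38.p6, the same assembly as mm10), as the 250 bases before each annotated start site. They were searched on both strands for the core of the antioxidant response element, TGACNNNGC, where N is any base, and for the AP-1 motif TGACTCA, which starts with the same letters as the core. The core was found in NFE2L2, GCLM and 1 of the 3 promoters of TXNRD1, that is in 3 of 8 genes, and in 11.5% of the 27025 genes with a promoter in RefSeq. The AP-1 motif was found in 1 of 8 genes, SRXN1, where it occurs at 2 places, and in 5.16% of all genes. GCLC and HMOX1 had no promoter in this set, and CAT, NQO1, SOD2 and GPX3 had neither motif. Of these, GCLC and CAT were called higher in EAE-induced mice on day 14. NFE2L2, GCLM, TXNRD1 and SRXN1, which hold a match, were also all called higher. A link between the motifs and the calls was not tested. All stretches that hold a match are shown. Each starts 250 bases before the start site, runs 5′ to 3′ on the strand of the gene and ends 30 bases after the last match, and the capitals mark the matches.
NFE2L2 (chr2:75704865-75704913, minus strand): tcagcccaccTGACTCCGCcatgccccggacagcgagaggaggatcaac
GCLM (chr3:122245307-122245461, plus strand): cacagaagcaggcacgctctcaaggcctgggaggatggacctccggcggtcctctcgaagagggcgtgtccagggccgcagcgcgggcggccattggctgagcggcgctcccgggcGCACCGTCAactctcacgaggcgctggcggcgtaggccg
TXNRD1 (chr10:82858956-82859152, plus strand): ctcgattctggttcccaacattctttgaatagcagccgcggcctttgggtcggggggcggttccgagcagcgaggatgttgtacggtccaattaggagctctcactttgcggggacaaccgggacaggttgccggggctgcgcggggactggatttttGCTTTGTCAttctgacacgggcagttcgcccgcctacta
SRXN1 (chr2:152105274-152105515, plus strand): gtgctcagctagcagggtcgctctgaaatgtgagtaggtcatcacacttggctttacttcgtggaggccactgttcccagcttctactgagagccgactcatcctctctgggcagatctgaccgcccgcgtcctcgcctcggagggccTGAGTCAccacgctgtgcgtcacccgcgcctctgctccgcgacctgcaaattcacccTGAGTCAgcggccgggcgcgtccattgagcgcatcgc
The core starts at base -240 in NFE2L2, -134 in GCLM and -92 in TXNRD1, counted back from the start site, and the AP-1 matches of SRXN1 start at bases -102 and -45. In GCLM, TXNRD1 and SRXN1 the matches lie on the strand opposite to the gene. Only C was allowed as the fourth base of the core, so the stretch TGAGTCAgc at base -45 of SRXN1 was not counted as a core. These are matches of letters in a short window, and sequence farther from the start sites was not searched.

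Expression is given as RPKM, read numbers corrected for how long a gene's exons are and how deeply each library was sequenced. Each day was fitted with limma as 1 model of its 15 mice, on log2(RPKM + 0.1), and a fold change therefore slightly understates the change of low genes. A gene was tested where either compared group averaged above 3 RPKM, and it was called when its Benjamini-Hochberg adjusted p over all tested genes was below 0.05 and its fold change above 1.5. All 10 genes passed the filter in every comparison. All p-values below are adjusted p-values of limma unless named otherwise. By estimate, libraries held 18.1M to 31.6M reads on genes. EAE mouse 3 of day 14 was the deepest library and the others had at most 24.8M. The member with the fewest reads, GCLC, had at least 139 estimated reads in every library, a counting error of at most 8.47%. In unimmunized mice on day 14 all 8 skeletal muscle fibre markers exceeded 3 RPKM, so the defining markers of the labelled tissue were present. The 2 libraries least like their own group were the first Ctrl mouse (median correlation with its group 0.960) and the first OVA mouse (0.962) of day 14. The calls of day 14 are also given without them, and the correlations are not. The labels name no batch.

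On day 14, the muscle of EAE-induced mice held more mRNA of NRF2 itself and of 5 defence genes, and less of 1. Compared with unimmunized mice, NFE2L2, GCLC, GCLM, TXNRD1, SRXN1 and CAT rose 1.82-fold to 3.20-fold and SOD2 fell to 0.618 of the control level. NQO1, HMOX1 and GPX3 were not called. Of the 10 genes, 6 were called higher, beside 14.6% of the 8771 tested genes (1282 genes), and 1 was called lower, beside 11.8% (1036 genes). Against OVA mice the same 6 genes were called higher, beside 11.0% of 8674 tested genes, and SOD2 was called lower, beside 9.28%. The median log2 fold change of the 10 genes was 0.93 against Ctrl and 0.72 against OVA, and the median of all tested genes was 0.11 in both comparisons. In 6 of the 10 genes the EAE and Ctrl mice did not overlap, and likewise in 6 of 10 for EAE and OVA mice, beside 32.2% and 26.2% of all tested genes. All 7 calls against Ctrl held without the first Ctrl mouse, and 6 of the 7 against OVA, all but GCLC, without the first OVA mouse. Both comparisons share the same 5 EAE mice and are not independent of each other. In whole muscle, fewer cells of a type and less RNA per cell cannot be told apart.

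**Figure D1:**
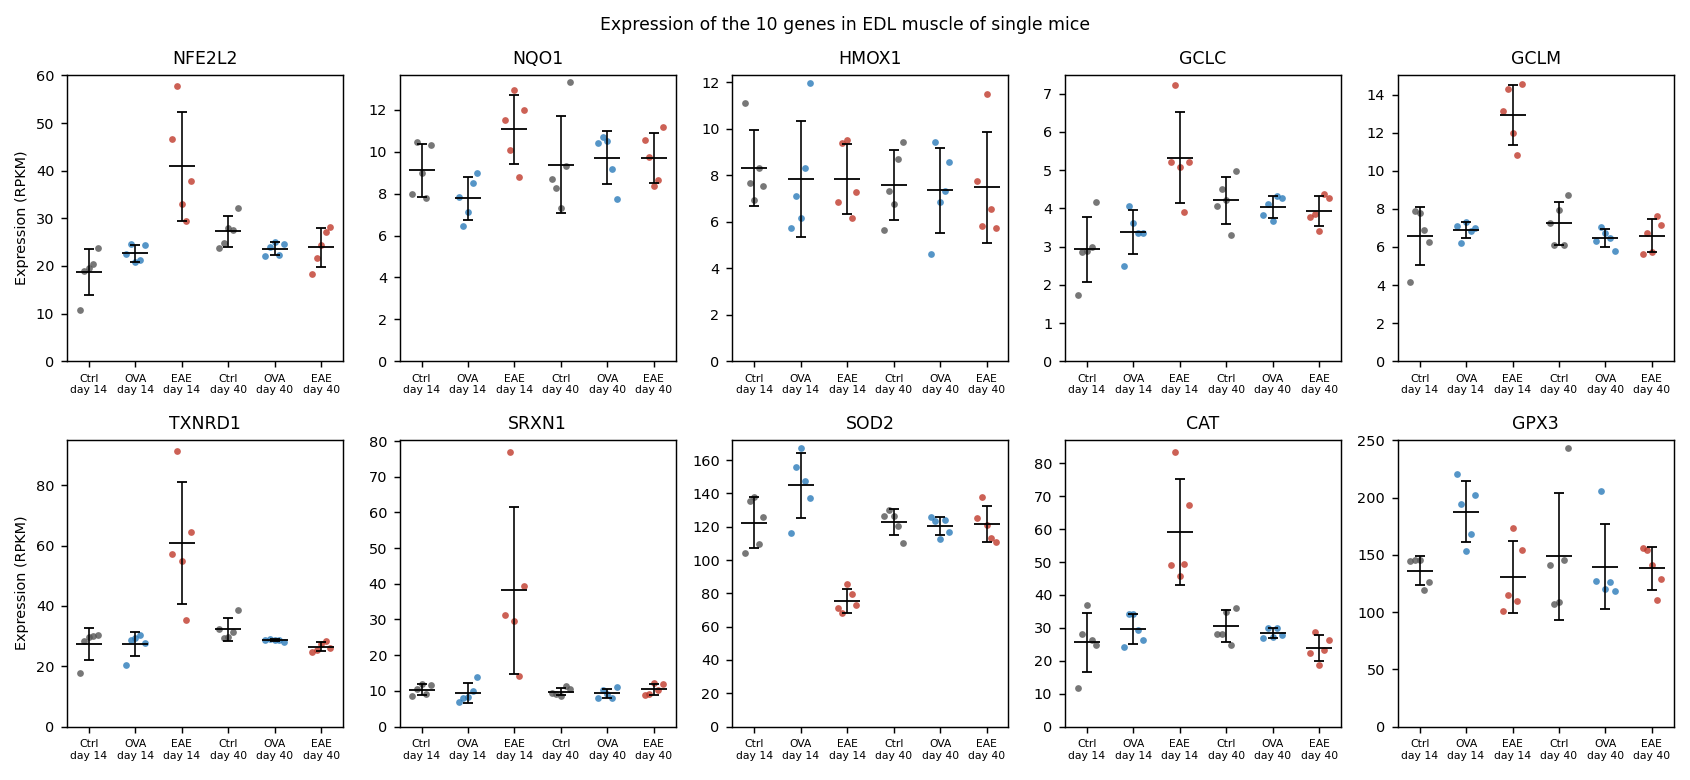
Expression (RPKM, vertical axis from 0) of the 10 genes in EDL muscle, with 1 point for each mouse in the 6 groups on the horizontal axis, and black bars for the mean and SD of 5 mice. The EAE mice of day 14 lie above all Ctrl and OVA mice of that day in NFE2L2, GCLM, TXNRD1, SRXN1 and CAT and below them in SOD2, and the groups of day 40 lie close together.

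NFE2L2 (chr2:75675513-75704663), the gene of NRF2, was measured at 10.8, 19.0, 19.7, 20.5 and 23.9 RPKM in the Ctrl mice of day 14, at 22.5, 24.7, 20.7, 21.2 and 24.3 RPKM in the OVA mice and at 46.6, 57.8, 32.9, 29.4 and 37.9 RPKM in the EAE mice. Every EAE mouse lay above every Ctrl and OVA mouse, and the first Ctrl mouse was the lowest of all. The log2 fold change was 1.12 ± 0.20 (SE, adjusted p = 0.000366) against Ctrl and 0.81 ± 0.20 (adjusted p = 0.00475) against OVA. Without the first Ctrl mouse it was 0.94 (adjusted p = 0.000394). Between OVA and Ctrl mice the groups overlapped, with a log2 fold change of 0.32 ± 0.20 (adjusted p = 0.631).

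GCLC and GCLM encode the catalytic and the modifier subunit of glutamate-cysteine ligase, the rate-limiting enzyme of glutathione synthesis. GCLM (chr3:122245487-122267215) was measured at 4.15, 7.88, 7.78, 6.87 and 6.27 RPKM in Ctrl mice, at 7.09, 6.20, 7.29, 6.85 and 7.02 RPKM in OVA mice and at 13.1, 14.3, 12.0, 10.8 and 14.5 RPKM in EAE mice. The EAE mice stood clear of both control groups. This was a log2 fold change of 0.99 ± 0.15 against Ctrl (adjusted p = 8.98e-05) and 0.89 ± 0.15 against OVA (adjusted p = 0.000256), and it was 0.84 without the first Ctrl mouse. GCLC (chr9:77754535-77794489) was the lowest of the 10 genes, at 1.74, 2.87, 2.89, 2.99 and 4.16 RPKM in Ctrl mice, at 2.48, 4.07, 3.63, 3.36 and 3.35 RPKM in OVA mice and at 5.21, 7.23, 5.09, 3.90 and 5.20 RPKM in EAE mice. Here the groups overlapped, because the fourth EAE mouse lay below the fifth Ctrl mouse and the second OVA mouse. The log2 fold change was 0.86 ± 0.20 against Ctrl (adjusted p = 0.00278) and 0.63 ± 0.20 against OVA (adjusted p = 0.0219). The call against OVA was lost without the first OVA mouse (0.53, adjusted p = 0.0549) or without the second EAE mouse (0.52, adjusted p = 0.0680), and with a pseudocount of 1 RPKM (0.52) or quantile normalization (0.56) the change fell below the fold threshold.

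TXNRD1 and SRXN1 serve the thioredoxin system: the first is the cytosolic thioredoxin reductase and the second, sulfiredoxin, restores overoxidized peroxiredoxins. SRXN1 (chr2:152105524-152111376) rose more than any other of the 10 genes, from 8.63, 10.5, 11.8, 9.08 and 11.8 RPKM in Ctrl mice and 6.83, 7.89, 8.17, 10.0 and 13.9 RPKM in OVA mice to 31.2, 76.8, 29.5, 14.1 and 39.3 RPKM in EAE mice. The fourth EAE mouse lay only just above the highest OVA mouse, while the second EAE mouse was the highest of all. The EAE values of SRXN1 spread widely, with a coefficient of variation of 61.4% beside 14.2% in Ctrl and 29.6% in OVA mice. Its log2 fold change was 1.68 ± 0.32 against Ctrl (adjusted p = 0.000595) and 1.85 ± 0.32 against OVA (adjusted p = 0.000319). Without the second EAE mouse these changes were 1.37 and 1.55, and both were still called. TXNRD1 (chr10:82833951-82897724) was measured at 17.8, 28.2, 29.8, 30.0 and 30.5 RPKM in Ctrl mice, at 20.4, 28.8, 29.5, 30.3 and 27.6 RPKM in OVA mice and at 57.4, 91.4, 55.0, 35.5 and 64.5 RPKM in EAE mice. The EAE mice did not overlap with either control group, and the first mouse of each control group was low. The log2 fold change was 1.11 ± 0.21 against Ctrl (adjusted p = 0.000604) and 1.10 ± 0.21 against OVA (adjusted p = 0.000809). It was 0.97 without the first Ctrl mouse and 1.00 without the first OVA mouse.

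CAT, SOD2 and GPX3 remove superoxide and peroxides directly. CAT (chr2:103453904-103485153), the catalase of peroxisomes, was measured at 11.6, 28.2, 36.9, 26.3 and 24.9 RPKM in Ctrl mice, at 24.3, 34.3, 34.3, 29.3 and 26.2 RPKM in OVA mice and at 49.0, 83.5, 45.7, 49.4 and 67.3 RPKM in EAE mice. The lowest EAE mouse stood above the highest Ctrl and OVA mice. This was a log2 fold change of 1.26 ± 0.25 against Ctrl (adjusted p = 0.000819), 1.00 without the first Ctrl mouse (adjusted p = 0.000601), and 0.96 ± 0.25 against OVA (adjusted p = 0.00631). SOD2 (chr17:13007839-13018119), the manganese superoxide dismutase of mitochondria, went the other way. It was measured at 104, 135, 138, 109 and 126 RPKM in Ctrl mice, at 116, 156, 167, 147 and 137 RPKM in OVA mice and at 70.9, 68.0, 85.4, 79.7 and 73.2 RPKM in EAE mice. All EAE mice lay below all Ctrl and OVA mice, and the EAE values were close to one another, with a coefficient of variation of 9.36%. The log2 fold change was -0.69 ± 0.12 against Ctrl (adjusted p = 0.000252) and -0.93 ± 0.12 against OVA (adjusted p = 2.40e-05).

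GPX3 (chr11:54902854-54910387), a secreted glutathione peroxidase, was measured at 145, 145, 146, 119 and 126 RPKM in Ctrl mice, at 221, 194, 154, 168 and 203 RPKM in OVA mice and at 101, 115, 173, 109 and 155 RPKM in EAE mice. All 5 OVA mice lay above all Ctrl mice, and the share of all tested genes without overlap was not computed for this comparison. The log2 fold change of 0.46 ± 0.15 was not called (unadjusted p of limma = 0.00787, adjusted p = 0.344). An unadjusted p below 0.05 was found in 821 of the 8471 tested genes. EAE mice overlapped with both groups, at -0.09 ± 0.15 against Ctrl (adjusted p = 0.648) and -0.54 ± 0.15 against OVA (adjusted p = 0.00983). The last change fell just short of the fold threshold, which it passed under median-of-ratios scaling and quantile normalization (-0.59 under either). It also passed the threshold without OVA mouse 3 (-0.61), EAE mouse 3 (-0.65) or EAE mouse 5 (-0.61).

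NQO1, the quinone reductase that is often used as a readout of NRF2, and HMOX1, the inducible haem oxygenase, were not called. NQO1 (chr8:107388225-107403205) was measured at 7.97, 10.5, 9.00, 7.77 and 10.3 RPKM in Ctrl mice, at 7.84, 6.44, 7.10, 8.50 and 8.98 RPKM in OVA mice and at 11.5, 10.1, 13.0, 8.80 and 12.0 RPKM in EAE mice. Only the fourth EAE mouse lay within the range of the OVA mice. Its log2 fold change was 0.28 ± 0.13 against Ctrl (adjusted p = 0.0871) and 0.50 ± 0.13 against OVA (adjusted p = 0.00637), the latter below the fold threshold of 1.5 at 1.42-fold. HMOX1 (chr8:75093618-75100593) was measured at 11.1, 7.66, 6.91, 8.31 and 7.52 RPKM in Ctrl mice, at 5.74, 7.09, 6.14, 8.30 and 12.0 RPKM in OVA mice and at 6.84, 9.40, 9.49, 6.17 and 7.27 RPKM in EAE mice. The 3 groups overlapped, and the log2 fold change was -0.08 ± 0.19 against Ctrl (adjusted p = 0.737) and 0.03 ± 0.19 against OVA (adjusted p = 0.921), of which both changed sign with a mouse left out.

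Between OVA and Ctrl mice of day 14, GPX3 was the only one of the 10 genes whose groups did not overlap. The share of all tested genes without overlap was not computed for this comparison. By limma, 0 of the 10 genes were called, beside 0.142% of 8471 tested genes (12 genes). An unadjusted p of limma below 0.05 was found in 1 of 10, GPX3, beside 821 of the 8471 genes. The log2 fold changes ran from -0.23 in NQO1 to 0.46 in GPX3.

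**Figure D2:**
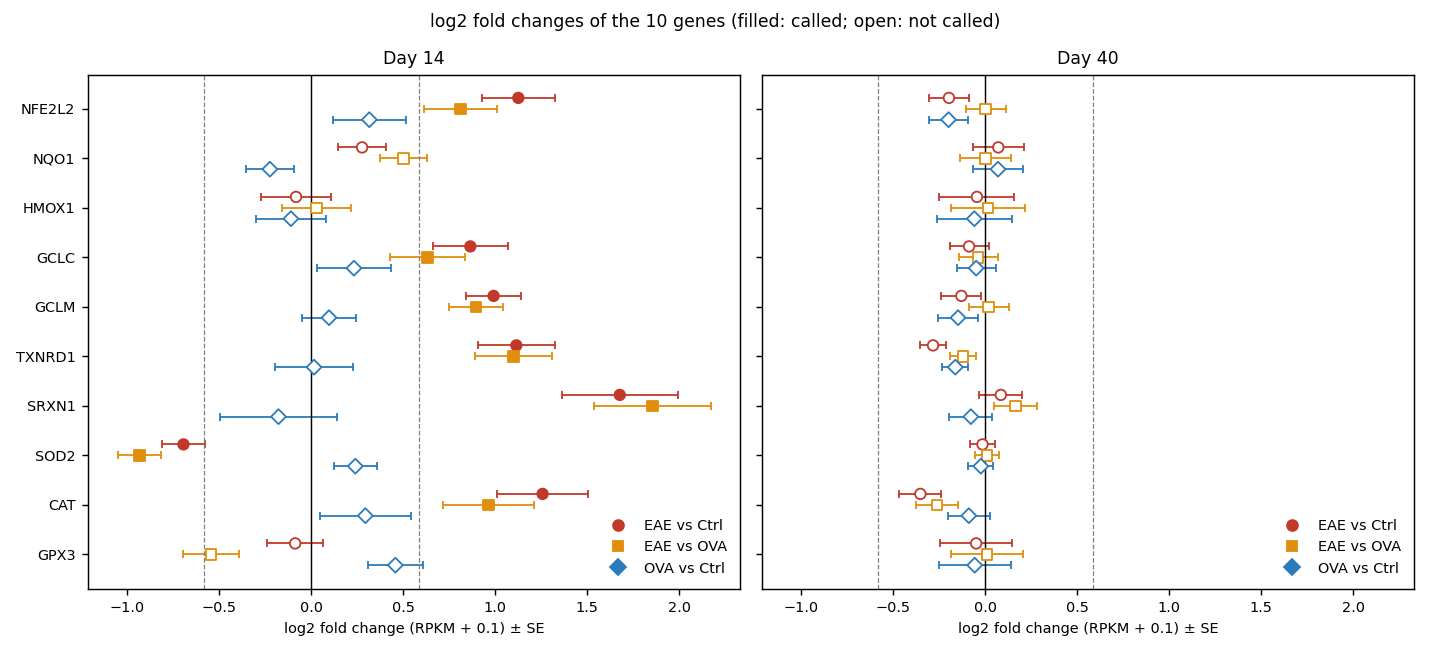
log2 fold changes of the 10 genes (horizontal axis, with SE bars) in the comparisons of day 14 (left) and day 40 (right). Filled symbols were called, open symbols were not, and dashed lines mark the fold threshold of 1.5. On day 14 the EAE comparisons lie at 0.63 or above in 6 genes and at -0.69 or below in SOD2, and on day 40 all comparisons lie between -0.35 and 0.16.

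The 5 EAE mice differed among themselves. Relative to the mean of the 5 Ctrl mice, the second EAE mouse held 7.42 times the SRXN1 mRNA, 3.35 times the TXNRD1, 3.27 times the CAT, 3.08 times the NFE2L2 and 2.47 times the GCLC, and was the highest of the 5 in each of these. The fourth EAE mouse was the lowest of the 5 in NFE2L2, GCLC, GCLM, TXNRD1 and SRXN1, with 1.36 times the SRXN1 and 1.30 times the TXNRD1 of the Ctrl mean, but in CAT it lay in the middle. GCLM spread least of the 6 higher genes, between 1.64 and 2.21 times the Ctrl mean, and SOD2 lay between 0.555 and 0.697. Over all 30 mice, which include the EAE mice that set these levels apart, the log2 levels of TXNRD1 and SRXN1 (Pearson r = 0.92), GCLM and CAT (0.91) and GCLM and TXNRD1 (0.89) were the most alike among the pairs of the 10 genes. Over the 25 mice outside the EAE group of day 14 the first pair fell to 0.32, while GCLM and CAT had 0.78 and GCLM and TXNRD1 had 0.62. NFE2L2 and GCLC had 0.86 over all mice and 0.79 without the EAE mice of day 14. The 25 mice include the first Ctrl mouse of day 14, the lowest of them in NFE2L2, GCLC, GCLM, TXNRD1 and CAT. The correlations were not computed without that mouse. The mice of a group share a treatment, so these correlations are descriptions.

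**Figure D3:**
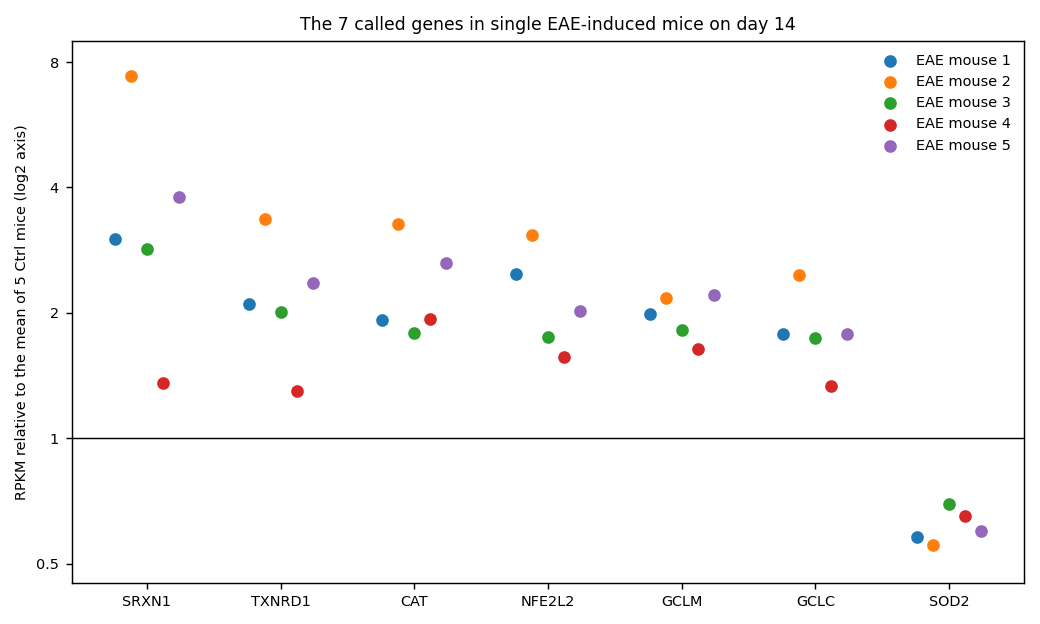
RPKM of the 7 called genes in each of the 5 EAE-induced mice of day 14, relative to the mean of the 5 Ctrl mice (log2 vertical axis, with the Ctrl mean at 1). Mouse 2 (orange) is highest in SRXN1 at 7.42 and mouse 4 (red) lowest at 1.36, whereas the SOD2 points lie between 0.555 and 0.697.

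The genes most like each member were found by Pearson correlation of log2 levels over the 30 mice, among all genes above the filter. Both the 30 mice and the 25 named below include the first Ctrl mouse of day 14. NFE2L2 was most like Slc38a2 (r = 0.93, and 0.85 over the 25 mice outside the EAE group of day 14), which encodes an amino acid transporter. TXNRD1 was most like Spg20 (0.96, and 0.83) and Ampd3 (0.96, and 0.79), an AMP deaminase. SRXN1 was most like the transcription factor Runx1 (0.94) and the GTPase Rhou (0.94), but outside the EAE mice of day 14 only at 0.36 and 0.33. SOD2 was most like Sdha (0.95, and 0.83) and Uqcrc2 (0.94, and 0.79), subunits of complexes II and III of the mitochondrial respiratory chain. HMOX1 was most like Cd68 (0.72, and 0.78), a macrophage marker, and Plin2 (0.71, and 0.80), a lipid droplet protein, and GPX3 was most like the monocyte receptor Cd14 (0.70, and 0.74). For the others the highest r were 0.93 for GCLC with Stam, 0.94 for GCLM with Atp13a3, 0.94 for CAT with Rab10 and 0.76 for NQO1 with Lsm14b. Over the 25 mice outside the EAE group of day 14 they were 0.89, 0.74, 0.87 and 0.66, in the same order.

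Markers of other cell types also moved between the groups of day 14. The summed level of 10 neutrophil markers was 4.28 to 11.3 RPKM in Ctrl mice, 70.2 to 239 RPKM in OVA mice and 220 to 405 RPKM in EAE mice. All 5 tested neutrophil markers were called higher in EAE than in Ctrl mice, and the same number in OVA than in Ctrl mice, where 0 of the 10 defence genes were called. Between EAE and OVA mice 1 of 5 was called, S100a8, which was higher (225 ± 101 against 46.5 ± 24.4 RPKM, SD, n = 5) and on average makes up most of the sum in EAE mice. S100a9 (-0.96, adjusted p = 0.0638), Ngp (-0.86, adjusted p = 0.0993) and Retnlg (-1.05, adjusted p = 0.109) had log2 fold changes below 0 against OVA, and the median of the 5 was -0.86 beside 0.11 of all tested genes. The sum of 10 macrophage markers was 283 to 426 RPKM in Ctrl, 264 to 408 RPKM in OVA and 135 to 302 RPKM in EAE mice, with 5 of 9 tested markers called lower against Ctrl and 6 of 9 against OVA. The sum of 6 erythroid markers was 189 to 684 RPKM in Ctrl, 475 to 1586 RPKM in OVA and 26.5 to 189 RPKM in EAE mice, and all 4 tested markers were called lower in both comparisons, while CAT, which red cells also hold, was higher. The sum of 7 fibroblast markers was 870 to 1425 RPKM in Ctrl, 681 to 918 RPKM in OVA and 316 to 502 RPKM in EAE mice, with 6 and 5 of 7 called lower. The sum of 8 fibre markers was 80408 to 103180 RPKM in Ctrl, 72179 to 92690 RPKM in OVA and 59230 to 71276 RPKM in EAE mice, and 1 of the 8, Pvalb, was called lower in both comparisons. Of 8 endothelial markers 3 were called lower against Ctrl (Kdr, Emcn and Cldn5) and 3 against OVA (Kdr, Emcn and Vwf). Of 4 tested adipocyte markers 0 and 1 were called lower. Of 5 tested Schwann cell markers 0 were called, 0 of 7 lymphocyte markers passed the filter against Ctrl, and the 1 that passed against OVA was called lower. In none of these lists was a marker without reads in every mouse of a group. The part of these cell types in the results for the 10 genes was not tested.

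On day 40, the differences between the groups were small in all 10 genes. By limma, 0 of 10 were called for EAE against Ctrl, beside 0.460% of 8691 tested genes (40 genes). An unadjusted p of limma below 0.05 was found in 2 of 10, beside 2423 of the 8691 genes. For EAE against OVA 0 of 10 were called, beside 0.209% of 8598 (18 genes). Here 1 had an unadjusted p below 0.05, beside 1500 of the 8598 genes. For OVA against Ctrl 0 of 10 were called, beside 0% of 8706 tested genes. In that comparison 1 had an unadjusted p below 0.05, beside 272 of the 8706 genes. The log2 fold changes of the 10 genes ran from -0.35 to 0.08 between EAE and Ctrl mice and from -0.26 to 0.16 between EAE and OVA mice.

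TXNRD1 was the member nearest to a call on day 40. It was measured at 32.3, 29.4, 29.7, 31.4 and 38.7 RPKM in Ctrl mice, at 28.6, 29.2, 28.9, 28.6 and 28.1 RPKM in OVA mice and at 24.6, 25.5, 27.4, 28.4 and 26.1 RPKM in EAE mice. All EAE and all OVA mice lay below all Ctrl mice. The share of all tested genes without overlap was not computed on day 40. The log2 fold change between EAE and Ctrl mice was -0.28 ± 0.07 (adjusted p = 0.0461), below the fold threshold, and its adjusted p was 0.124 with the replicate number as a block. CAT had 28.0, 28.3, 34.9, 24.9 and 36.2 RPKM in Ctrl mice and 22.2, 28.7, 18.6, 23.4 and 26.3 RPKM in EAE mice, which overlapped, with a log2 fold change of -0.35 ± 0.11 (adjusted p = 0.0810). SRXN1 covered a narrow range in these mice, with 8.64 to 11.2 RPKM in Ctrl, 7.86 to 11.0 RPKM in OVA and 8.74 to 12.3 RPKM in EAE mice. SOD2 lay between 110 and 138 RPKM in all 15 mice of day 40, NFE2L2 between 18.3 and 32.3 RPKM, GCLC between 3.29 and 4.98 RPKM and GCLM between 5.65 and 8.71 RPKM. NQO1 ranged from 7.34 to 13.3 RPKM and HMOX1 from 4.59 to 11.5 RPKM, and the 3 groups overlapped in each of these genes. In GPX3 single mice stood out, with 243 RPKM in the fifth Ctrl mouse beside 107 to 145 RPKM in the other 4, and 206 RPKM in the second OVA mouse beside 119 to 128 RPKM in the other 4.

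Whether the EAE effect differed between the days was tested by interaction terms, fitted to all 30 mice at once, with an adjusted p below 0.05 as the only threshold. The effect of EAE against Ctrl differed between day 14 and day 40 in 7 of 10 genes, beside 48.6% of 9013 tested genes (4382 genes): it was lower on day 40 in NFE2L2 (-1.32 ± 0.23 on the log2 scale, adjusted p = 7.24e-05), GCLC (-0.95 ± 0.23), GCLM (-1.12 ± 0.19), TXNRD1 (-1.40 ± 0.23), SRXN1 (-1.59 ± 0.35) and CAT (-1.61 ± 0.28), and higher in SOD2 (0.68 ± 0.13, adjusted p = 0.000184). The median of all tested genes was -0.15 and moved to -0.01 under quantile normalization. Relative to that median of -0.15 the changes ran from -1.46 in CAT to -0.80 in GCLC, with 0.83 in SOD2. Of all genes called, 1487 were higher and 2895 lower, and 1995 and 2140 under quantile normalization. Against OVA, 8 of 10 genes were called, beside 35.1% of 8935 tested genes (3138 genes): the same 7 and NQO1 (-0.50 ± 0.19, adjusted p = 0.0461). The call of NQO1 held in 6 of 20 fits with 1 mouse left out and in 4 of 9 other settings. That of GCLC held in 17 of 20 such fits and in 9 of 9 settings. The control groups entered these differences too: the Ctrl mean of NFE2L2 was 18.8 ± 4.83 RPKM on day 14 and 27.3 ± 3.32 RPKM on day 40 (SD, n = 5), and that of GCLC was 2.93 ± 0.857 and 4.21 ± 0.621 RPKM. The change of the control groups between the days was not tested. For OVA against Ctrl, 0 of 10 genes were called by limma, beside 0% of 8848 tested genes. An unadjusted p of limma below 0.05 was found in 1 of 10, NFE2L2, beside 823 of the 8848 genes.

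Across the 6 groups, SOD2 and GPX3 were the most abundant of the 10 genes per length of exon, with group means of 75.5 to 145 RPKM and 131 to 188 RPKM. TXNRD1 (26.4 to 60.8 RPKM), CAT (23.8 to 59.0 RPKM), NFE2L2 (18.8 to 40.9 RPKM) and SRXN1 (9.29 to 38.2 RPKM) followed. NQO1 (7.77 to 11.1 RPKM), GCLM (6.47 to 12.9 RPKM), HMOX1 (7.34 to 8.30 RPKM) and GCLC (2.93 to 5.33 RPKM) were lowest. The EAE group of day 14 had the highest mean of the 6 groups in NFE2L2, NQO1, GCLC, GCLM, TXNRD1, SRXN1 and CAT and the lowest in SOD2 and GPX3. In HMOX1 the 6 group means lay within 1.13-fold of each other, less than the spread of the mice in a group.

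Another 98 genes of the same pathways, in 9 lists also chosen with earlier results of these data known, were all found in the table. Between EAE and Ctrl mice of day 14, 12 of 82 tested were called higher and 15 lower, beside 14.6% and 11.8% of all tested genes, so that the share called higher was that of all genes. Against OVA, 13 of 81 were called higher and 14 lower, beside 11.0% and 9.28%. Of the 27 calls in each comparison, 22 held in every other setting, and 21 with each mouse left out in turn. Between OVA and Ctrl mice 0 of 80 were called. On day 40, 0 of 80 were called higher and 1 lower in EAE than in Ctrl mice, and this 1 gene, named after its values were seen, was Chac1, which degrades glutathione (17.0 ± 4.03 against 32.0 ± 9.18 RPKM, SD, n = 5, adjusted p = 0.0421). EAE and Ctrl mice overlapped, and this call held in 5 of 11 other settings, with an adjusted p of 0.0869 with the replicate number as a block and 0.359 with all mice in 1 model, and with single mice removed in 2 of 10. Against OVA 0 of 81 were called.

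**Figure D4:**
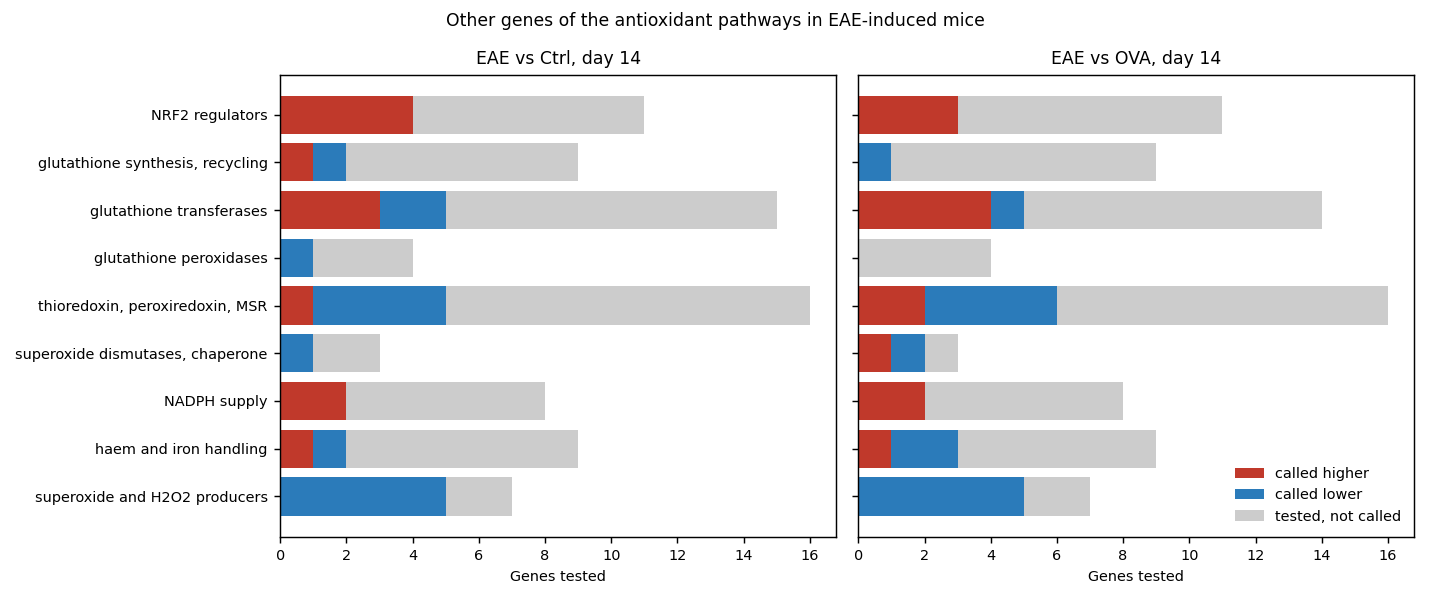
Number of tested genes (horizontal axis) in 9 lists of antioxidant pathway genes that were called higher (red), called lower (blue) or not called (grey) in EAE-induced mice on day 14, against Ctrl (left) and OVA (right). MSR stands for methionine sulfoxide reductases. The regulators of NRF2 and the NADPH genes hold only higher calls, with 4 of 11 and 2 of 8 against Ctrl, and the superoxide and hydrogen peroxide producers only lower calls, with 5 of 7, beside 14.6% of all tested genes called higher and 11.8% called lower. With lists this short, counts of 1 or 2 are near those shares.

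Among 11 tested regulators of NRF2, 4 were called higher and 0 lower in EAE than in Ctrl mice, with a median log2 fold change of 0.46 beside 0.11 of all tested genes. Sqstm1, whose product p62 draws KEAP1 into autophagy, rose from 279 ± 26.2 RPKM to 433 ± 75.7 RPKM (SD, n = 5, log2 fold change 0.62 ± 0.13, adjusted p = 0.000996), with 225 ± 22.6 RPKM in OVA mice. The other 3, named after their values were seen because EAE and Ctrl mice overlapped, were the small MAF genes Mafk (0.96, adjusted p = 0.00253) and Maff (0.82, adjusted p = 0.0166) and the repressor Bach1 (0.67, adjusted p = 0.0211). The calls of Sqstm1, Maff and Bach1 were lost without the second EAE mouse, that of Bach1 also without the first and that of Sqstm1 without the second Ctrl mouse. Keap1 itself was measured at 16.2 ± 0.629 RPKM in Ctrl and 18.5 ± 1.80 RPKM in EAE mice (SD, n = 5) and was not called (0.18, adjusted p = 0.0726).

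Pgd and Me1, which make NADPH for the reductases, were the 2 of 8 tested NADPH genes called, both higher, and the median log2 fold change of the 8 was -0.08 beside 0.11 of all tested genes. Pgd, of the pentose phosphate pathway, rose from 12.7 ± 1.73 RPKM in Ctrl to 27.0 ± 6.31 RPKM in EAE mice (SD, n = 5, log2 fold change 1.06 ± 0.16, adjusted p = 9.05e-05), and malic enzyme Me1 from 32.5 ± 2.26 to 53.2 ± 4.81 RPKM (0.71 ± 0.11, adjusted p = 0.000178). Of 9 tested genes of glutathione synthesis and recycling, 1 was called higher, the glutathione reductase Gsr (14.7 ± 1.46 to 22.3 ± 3.81 RPKM, adjusted p = 0.000827, called in 5 of 10 cases where a mouse was removed), and 1 lower, the glutaredoxin Glrx (27.5 ± 3.17 to 15.6 ± 1.78 RPKM, adjusted p = 1.74e-05). Of 15 tested glutathione transferases 3 were called higher and 2 lower. Gstm2 rose from 34.5 ± 9.05 to 71.0 ± 5.92 RPKM and Gstp1 from 95.7 ± 23.0 to 188 ± 36.9 RPKM, while Mgst3 fell from 262 ± 90.7 to 135 ± 35.3 RPKM. Gstp1 and Gstp2 (9.78 ± 1.83 RPKM in EAE mice) are near-identical, and how their reads were divided is not known.

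The remaining lists are given as counts, beside 14.6% of all tested genes called higher and 11.8% called lower against Ctrl. Of 16 tested thioredoxin, peroxiredoxin and methionine sulfoxide reductase genes 1 was called higher and 4 lower against Ctrl, with a median log2 fold change of -0.31. The methionine sulfoxide reductases Msrb2 (17.6 ± 2.19 to 8.46 ± 1.98 RPKM, adjusted p = 6.37e-05) and Msrb1 (193 ± 39.9 to 109 ± 21.5 RPKM, adjusted p = 0.000957) were lower, and their groups did not overlap. The extracellular superoxide dismutase Sod3 fell from 18.9 ± 2.90 to 11.1 ± 2.27 RPKM (adjusted p = 0.00239), while the cytosolic Sod1 was called only against OVA, where it was higher (191 ± 53.3 in OVA and 312 ± 51.5 RPKM in EAE mice, adjusted p = 0.00628). Of 4 tested glutathione peroxidases 1 was called, Gpx7, which was lower (6.87 ± 1.62 to 3.75 ± 0.646 RPKM, adjusted p = 0.00299). Of 9 tested genes of haem and iron handling 1 was called higher, the ferrochelatase Fech (24.9 ± 6.08 to 37.1 ± 1.68 RPKM, adjusted p = 0.00565, not called without the first Ctrl mouse), and 1 lower, the transferrin receptor Tfrc (21.2 ± 2.89 to 10.4 ± 0.953 RPKM, adjusted p = 7.89e-06). Against OVA, Tfrc and the iron exporter Slc40a1 (7.82 ± 0.523 to 4.84 ± 0.723 RPKM) were lower and the haem-related transporter Abcb6 (10.8 ± 1.02 to 16.5 ± 1.41 RPKM) higher, the last called in 8 of 11 other settings. Of 7 tested producers of superoxide and hydrogen peroxide 5 were called lower and 0 higher in both comparisons. They were Cyba (37.9 ± 15.7 to 17.5 ± 5.78 RPKM against Ctrl, adjusted p = 0.00390), Ncf1, Ncf4 and Rac2, components of the phagocyte NADPH oxidase, and Maob, a monoamine oxidase of mitochondria, of which Ncf1, Ncf4 and Rac2 were named after their values were seen. Against Ctrl, Cyba alone of these had groups that did not overlap, and 5 of 9 tested macrophage markers were called lower in the same comparison.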

How the data were processed

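EDL muscle of 30 mice was sequenced as poly(A) RNA, with 5 mice in each of 6 groups taken from the labels. Per the labels and the study's methods, the authors used Subread for alignment (mm10) and featureCounts for RefSeq transcripts, computed RPKM and deposited 1 table of 21073 genes. The strand setting of the counting is not given in the sources used here, so reads of antisense transcripts cannot be told apart. The deposited values are log2(RPKM + 1), as the values show: with this scale 60.3% of low values (median over libraries) were whole reads within 0.05, against 52.4% for the natural log and 41.0% if read as RPKM, and RPKM times exon length in kb summed to 1.07M to 1.08M per library, near the 1M that RPKM implies, against 20.4M or more for the natural log and at most 0.137M as RPKM. They were converted back to RPKM. Depth was estimated from the size of single reads at 18.1M to 31.6M per library. 

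Comparisons used limma 3.58.1 (lmFit, eBayes with a mean-variance trend) in R 4.3.3 on log2(RPKM + 0.1), fitting the 15 mice of each day together and all 30 mice for the interactions. EdgeR, which the study used, needs read counts, which were not used here. The model was tested on simulated data. The 10 genes, the 9 pathway lists and the 9 marker lists were chosen with earlier results of these data known. Named pathway genes were, in each list and comparison, at most 3 called genes with the largest log2 fold change whose groups did not overlap. Each fit was repeated with other pseudocounts (1 and 0.01 RPKM), filters, scalings, model terms and with each mouse left out. P-values of limma test differences of group means against the spread between single mice.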

Additional observations from a re-analysis of the deposited data

Results flagged for a closer look

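In the 60 sets of 5 mice (10 genes in 6 groups), 4 held a single mouse far from the other 4, by Dixon's test at its 95% critical value, which chance alone gives in about 1 of 20 sets. TXNRD1 was low in the first Ctrl mouse of day 14 (17.8 RPKM, with the next at 28.2 RPKM) and in the first OVA mouse of day 14 (20.4 RPKM, with the next at 27.6 RPKM). These 2 mice are also the libraries least like their own groups. GPX3 was high in the fifth Ctrl mouse of day 40 (243 RPKM, with the next at 145 RPKM) and in the second OVA mouse of day 40 (206 RPKM, with the next at 128 RPKM).

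The effect of EAE differed between day 14 and day 40 by the interaction test of limma. Against Ctrl, the log2 difference was -1.32 in NFE2L2, -0.95 in GCLC, -1.12 in GCLM, -1.40 in TXNRD1, -1.59 in SRXN1, -1.61 in CAT and 0.68 in SOD2, with adjusted p from 2.85e-05 in TXNRD1 to 0.00165 in GCLC. Against OVA it was -0.81 in NFE2L2, -0.50 in NQO1, -0.67 in GCLC, -0.88 in GCLM, -1.22 in TXNRD1, -1.69 in SRXN1, -1.23 in CAT and 0.94 in SOD2, with adjusted p from 4.32e-06 in SOD2 to 0.0461 in NQO1. All of these come from the same EAE mice.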

How the results depend on the processing

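The number of the 10 genes called for EAE against Ctrl on day 14 was 7 in every setting tried, also with each mouse left out in turn. For EAE against OVA it ranged from 6 to 8 with 1 mouse left out and from 6 to 9 in the other settings, the most without the fold threshold. No called fold change or interaction of the 10 genes changed sign. Of the 90 values (60 fold changes and 30 interactions), 25, all not called, changed sign in at least 1 alternative, to at most 0.15 in size. On day 14 these were HMOX1 against OVA (-0.01 with median-of-ratios scaling, -0.06 with quantile normalization, and -0.07 to 0.19 with a mouse left out), HMOX1 against Ctrl (-0.16 to 0.03 with a mouse left out) and, between OVA and Ctrl mice, GCLM (-0.06 to 0.17) and TXNRD1 (-0.13 to 0.12). The 14 called fold changes kept their call in 152 alternative values and lost it in 2, and with a mouse left out in 138 and 2, all 4 losses being GCLC against OVA. Those not called passed the threshold in 5 and 3. The 15 called interactions kept their call in 130 alternative values and lost it in 5 (NQO1), and with a mouse left out in 283 and 17 (14 in NQO1, 3 in GCLC). Interactions not called passed the threshold in 2 (GPX3). On day 40, 0 genes were called for EAE against Ctrl in each setting except without the fold threshold, where 1, TXNRD1, was. The main fits did not pair mice by replicate number. On day 14, deviations of mice with the same number correlated between -0.73 and 0.70. The correlation was above 0.1 in 7 of 15 such pairs, beside 24 of 60 pairs with different numbers. On day 40 it was above 0.1 in 1 of 15, beside 21 of 60. With the replicate block, 7 of the 10 genes were called in each EAE comparison of day 14, 7 in each interaction of EAE with day and 0 in the other comparisons.

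Over all genes, the calls for EAE against Ctrl on day 40 moved most relative to their number, from 40 (6 higher, 34 lower) to 229 without the fold threshold, 56 with a filter of 1 RPKM, 55 without a filter, 21 with median-of-ratios scaling (10 higher, 11 lower), 15 with a pseudocount of 1 RPKM, 8 with quantile normalization (5 higher, 3 lower), 6 with only the compared groups, 1 with the replicate block and 0 with all mice in 1 model. For EAE against OVA on day 40, 18 calls became 55 without the fold threshold and between 0 and 19 otherwise, and for OVA against Ctrl on day 14, 12 became between 7 and 42. Without the fold threshold, 2318 calls for EAE against Ctrl on day 14 became 4195 and 1762 against OVA became 3390. Quantile normalization moved the split for EAE against OVA on day 14 from 957 higher and 805 lower to 757 and 963, and that of its interaction with day from 993 and 2145 to 1424 and 1362. The cause was not tested. Depth limits GCLC and HMOX1 most, with as few as 139 and 156 estimated reads in a library.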
